A study of Mus musculus with 28 samples.

Results

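The genes described here are 10 Kruppel-like factors, Klf2, Klf4, Klf5, Klf6, Klf7, Klf9, Klf10, Klf12, Klf13 and Klf15, taken by gene name out of the 22919 genes listed, of which 17 carry a Klf name. Their transcription was measured by Bru-seq in cultures of cortex and hippocampus from CD1 mouse embryos at embryonic day 18, which per the labels held neurons, astrocytes and oligodendrocyte precursor cells. In Bru-seq, cells take up bromouridine and the labelled, newly made RNA is captured and sequenced; here the label was present for the last 20 minutes before harvest. All cultures carried a lentivirus from day in vitro 14, with a control shRNA (the shCtrl arm) or one directed at Rai1 (the shRai1 arm), and all were harvested on day 17. For the last 4 h they received water as vehicle, 1 µM tetrodotoxin (TTX), a blocker of voltage-gated sodium channels that stops action potentials, or 20 µM bicuculline (BIC), an antagonist of GABA-A receptors that raises network firing. The 16 libraries, each from pooled embryos, formed 6 groups of 3, except shCtrl vehicle and shCtrl BIC with 2 each. The study asked how Rai1 knockdown alters transcription when activity is lowered or raised.

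Kruppel-like factors are transcription factors that bind GC-rich and CACCC elements through C-terminal zinc fingers. Their N-terminal parts differ, so that some members mainly activate genes while others, among them Klf9, Klf10 and Klf13, recruit the Sin3 corepressor. In neurons the family is known for its control of neurite growth: Klf4 and Klf9 hold axon growth back, whereas Klf6 and Klf7 promote it.

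Counts per library were not used here, and the values are the authors' estimates per group: 1 pooled FPKM (reads scaled to gene length and library depth) with lower and upper bounds per condition, and log2 changes with standard errors (SE) and p-values from DESeq2. The mean normalized count over all libraries ranged from 17.1 for Klf2 and 86.1 for Klf4 through 261 for Klf10 and 486 for Klf15 to 3644 for Klf9, against a median of 107 over the 21192 genes with a test. Rai1 itself did not pass the test between the arms: the authors' deposited tables give log2 changes of 0.16 (SE 0.073) in vehicle, -0.12 (SE 0.064) in TTX and 0.03 (SE 0.073) in BIC, with DESeq2 adjusted p of 0.357, 1.000 and 1.000. The listed interval of Rai1 overlaps those of Mir6921, Mir6922 and Srebf1, so its counts are uncertain to that extent. An shRNA acts on finished mRNA, so nascent RNA does not check the labels, and the arms are named by their labels throughout.

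In shCtrl vehicle, the summed pooled FPKM was 594 for 8 neuron markers, 231 for 7 astrocyte markers and 190 for 7 markers of the oligodendrocyte lineage, as the labels describe the cultures. It was 22.1 for 8 microglia markers, 23.4 for 6 mural-cell markers and 1.85 for 8 endothelial markers, all 8 of which were under 1 FPKM. In bulk RNA, fewer cells of a type and less RNA per cell cannot be told apart.

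Promoter sequences are shown for the members that passed under BIC or under TTX in both arms and have an entry in the promoter table, so that elements of activity-responsive promoters can be looked up in them. Each is the 250 bases before the annotated start, 5′ to 3′ on the gene's strand, from RefSeq on GRCm38.p6: Klf4 at chr4:55532476-55532725 (minus strand), Klf6 at chr13:5861239-5861488 (plus), Klf2 at chr8:72318812-72319061 (plus), Klf7 at chr1:64121390-64121639 (minus), Klf13 at chr7:63938916-63939165 (minus) and Klf9 at chr19:23140976-23141225 (plus). Capitals mark TGACG, the core of a cAMP response element, TGANTCA, the AP-1 element, and the MEF2 box, on either strand.
Klf4: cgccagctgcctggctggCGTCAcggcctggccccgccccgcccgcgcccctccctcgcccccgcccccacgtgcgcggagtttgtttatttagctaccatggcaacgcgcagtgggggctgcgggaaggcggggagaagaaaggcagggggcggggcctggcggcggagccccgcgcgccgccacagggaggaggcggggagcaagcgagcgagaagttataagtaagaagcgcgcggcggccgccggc
Klf6: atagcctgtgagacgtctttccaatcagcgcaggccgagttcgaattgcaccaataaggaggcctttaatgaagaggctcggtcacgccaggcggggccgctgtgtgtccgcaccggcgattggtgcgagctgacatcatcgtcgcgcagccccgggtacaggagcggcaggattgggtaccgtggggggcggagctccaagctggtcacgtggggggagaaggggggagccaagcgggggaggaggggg
Klf2: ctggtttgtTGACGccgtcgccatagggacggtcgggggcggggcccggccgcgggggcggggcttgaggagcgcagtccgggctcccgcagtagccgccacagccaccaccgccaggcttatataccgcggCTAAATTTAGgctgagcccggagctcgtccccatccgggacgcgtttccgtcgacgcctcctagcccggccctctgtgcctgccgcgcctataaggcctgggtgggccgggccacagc
Klf7: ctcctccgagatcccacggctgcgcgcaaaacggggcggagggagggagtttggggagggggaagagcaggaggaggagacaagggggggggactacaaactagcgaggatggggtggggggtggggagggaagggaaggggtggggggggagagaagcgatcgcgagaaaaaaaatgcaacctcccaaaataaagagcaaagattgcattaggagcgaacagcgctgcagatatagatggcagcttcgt
Klf13: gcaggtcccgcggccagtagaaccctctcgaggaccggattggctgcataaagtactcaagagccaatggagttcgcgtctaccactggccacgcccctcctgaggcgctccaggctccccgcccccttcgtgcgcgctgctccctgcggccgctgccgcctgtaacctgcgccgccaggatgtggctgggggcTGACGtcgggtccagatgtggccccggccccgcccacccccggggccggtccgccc
Klf9: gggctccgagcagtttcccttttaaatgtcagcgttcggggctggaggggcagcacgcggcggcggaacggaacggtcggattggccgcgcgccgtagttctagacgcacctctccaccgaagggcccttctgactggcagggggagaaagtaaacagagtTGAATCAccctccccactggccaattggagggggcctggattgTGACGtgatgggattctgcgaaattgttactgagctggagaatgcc
Promoter windows from RefSeq were at hand for 8 of the 10 members, the exceptions being Klf5 and Klf10. On both strands, TGACG was found in 6 of the 8 windows, all but those of Klf6 and Klf7, and in 17.8% of all 32851 windows of this length. Counted from the start, its leftmost base lay at -241 in Klf2, -232 in Klf4, -46 in Klf9 and -56 in Klf13. Of the 8 windows, that of Klf9 had a TGANTCA match, at -89 (6.75% of all windows), and that of Klf2 a MEF2 box, at -118 (2.92%). The SRF-binding CArG box (1.47%) and TGACGTCA (1.55%), which contains TGACG, had no match in the 8 windows. GGGCGG, the GC box to which the family's own zinc fingers bind, occurred in 6 of 8 (32.7% of all windows), CACCC in 6 of 8 (52.0%) and CACGTG, the E-box, in 3 of 8 (6.02%). The share of G and C ran from 48.0% in Klf12 to 74.0% in Klf4, against a median of 52.4% over all windows. These matches describe letters, not binding.

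The members differed widely in level. In shCtrl vehicle the authors' pooled FPKM was 55.7 for Klf9 (bounds 42.8 to 68.6), 39.2 for Klf6 (30.3 to 48.1), 23.7 for Klf7 (16.6 to 30.7), 21.5 for Klf13 (16.3 to 26.7) and 16.8 for Klf10 (12.4 to 21.2). It was 16.2 for Klf5 (11.3 to 21.1), 10.2 for Klf15 (6.99 to 13.5), 4.96 for Klf12 (3.49 to 6.43), 4.68 for Klf2 (2.53 to 6.84) and 3.80 for Klf4 (2.29 to 5.32). Klf9, a hormone-induced repressor, thus stood above 96.3% of all genes on the per-length scale, and Klf4, known as one of the factors that reprogram cells to pluripotency, above 48.9%. Of the 9 pairs of neighbours in this order, the bounds of 8 overlapped, and those of Klf15 and Klf12 did not. The authors' table places Klf2 at chr8:74842961-74845553, Klf4 at chr4:55540009-55545347, Klf5 at chr14:99697910-99712628, Klf6 at chr13:5860735-5869639 and Klf7 at chr1:64082247-64167963, on mm9, the build in the submitters' processing notes. It places Klf9 at chr19:23215716-23241401, Klf10 at chr15:38221219-38230466, Klf12 at chr14:100269862-100549015, Klf13 at chr7:71031237-71083801 and Klf15 at chr6:90412620-90425203. These gene intervals run from 2.59 kb for Klf2 to 279 kb for Klf12, and those of Klf7, Klf9 and Klf13 also hold another listed entry (Mir6899, Mir1192 and E030018B13Rik), so the counts of these 3 genes are uncertain to that extent.

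**Figure D1:**
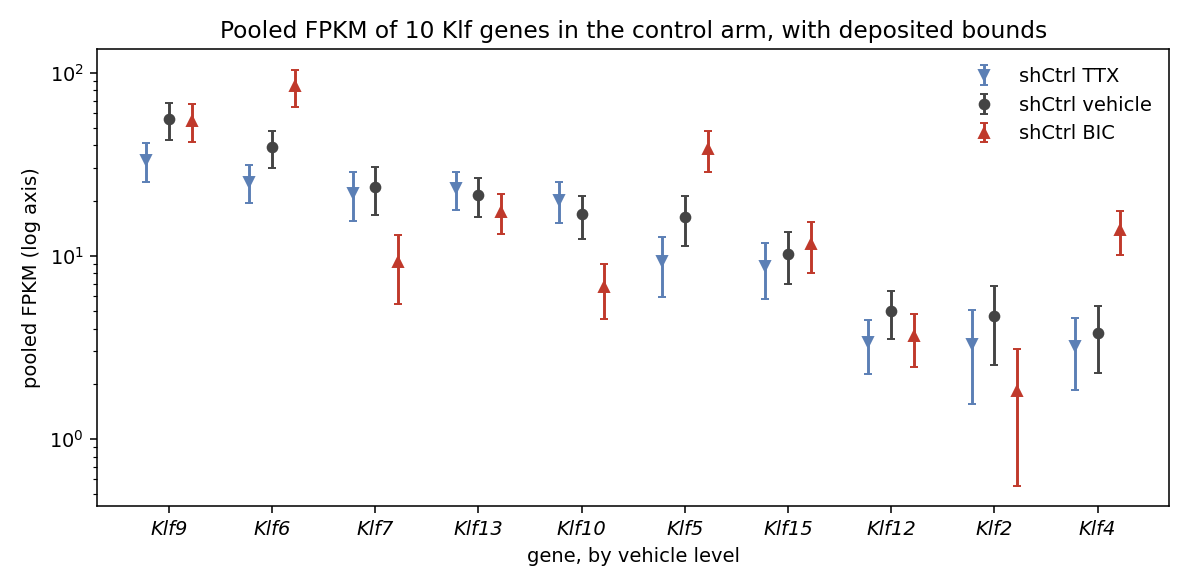
Pooled FPKM of the 10 members in shCtrl cultures with vehicle, TTX or BIC, on a log axis. Points are the authors' pooled values and bars their lower and upper bounds; the BIC bars of Klf4, Klf5 and Klf6 lie above, and those of Klf7 and Klf10 below, the vehicle bars.

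Under BIC, 3 members rose and 4 fell, the same 7 genes in each arm. Klf4, Klf5 and Klf6 were higher and Klf2, Klf7, Klf10 and Klf13 lower, whereas Klf9, Klf12 and Klf15 did not pass the test. The call, here and below, is an adjusted p under 0.05. Among all genes with an adjusted p, 17.4% were higher and 17.0% lower in shCtrl, and 21.3% were higher and 21.3% lower in shRai1. The list was not tested as a set. The median log2 change of the 10 members was -0.05 in shCtrl and 0.04 in shRai1, against 0.00 over all genes in both.

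Klf4 had the largest change of the 10. In shCtrl the pooled FPKM of Klf4 was 3.80 in vehicle, 3.21 in TTX and 13.8 in BIC (bounds 10.1 to 17.6), and the BIC bounds stood clear of those of vehicle. The authors' deposited tables give log2 changes under BIC of 2.41 (SE 0.25, DESeq2 adjusted p = 6.17e-21) in shCtrl and 2.80 (SE 0.21, adjusted p = 6.49e-39) in shRai1, or 5.31-fold and 6.98-fold. The log2 ratio of its pooled FPKM in shCtrl was smaller, at 1.84 (pseudocount 0.1). By size these were rank 37 of the 9914 and rank 27 of the 11299 genes above 0.

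Klf5, best known for driving proliferation in epithelia and smooth muscle, went from 16.2 FPKM in vehicle to 38.1 in BIC (bounds 28.6 to 47.7) in shCtrl. The authors' deposited tables give log2 changes of 1.33 (SE 0.11, DESeq2 adjusted p = 6.28e-34) in shCtrl and 1.51 (SE 0.084, adjusted p = 5.94e-71) in shRai1. Klf6, an axon-growth promoter that is also induced by injury, went from 39.2 to 84.2 FPKM (bounds 65.2 to 103), the highest of the 10 under BIC, with bounds that overlapped those of Klf9 (41.9 to 67.4). Its log2 changes in the authors' deposited tables were 1.03 (SE 0.10, DESeq2 adjusted p = 1.49e-21) and 1.21 (SE 0.082, adjusted p = 8.56e-48).

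Klf7, the other axon-growth promoter, moved the opposite way to Klf6. Its pooled FPKM was 23.7 in vehicle, 22.1 in TTX and 9.21 in BIC (bounds 5.48 to 12.9), so that BIC alone stood apart. The authors' deposited tables give log2 changes under BIC of -1.28 (SE 0.11, DESeq2 adjusted p = 5.75e-32) in shCtrl, rank 154 of the 11278 genes below 0, and -1.14 (SE 0.083, adjusted p = 4.38e-41) in shRai1. Under BIC the FPKM of Klf6 was thus 84.2 and that of Klf7 9.21, where vehicle had 39.2 and 23.7.

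Klf10, induced early by TGF-beta, was at 16.8 FPKM in vehicle and 6.74 in BIC (bounds 4.49 to 8.99), which did not overlap. Its log2 changes in the authors' deposited tables were -1.07 (SE 0.17, DESeq2 adjusted p = 6.67e-09) and -0.98 (SE 0.14, adjusted p = 1.61e-11). Klf13, a Sin3-recruiting factor closely related to Klf9, had 21.5 FPKM in vehicle and 17.3 in BIC, with overlapping bounds. Its log2 changes in the authors' deposited tables were -0.64 (SE 0.099, DESeq2 adjusted p = 1.32e-09) and -0.63 (SE 0.078, adjusted p = 5.94e-15), larger in size than its log2 FPKM ratio of -0.31 (pseudocount 0.1).

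Klf2, the flow-induced factor of endothelium, rested on few reads. Its pooled FPKM was 4.68 in vehicle, 3.30 in TTX and 1.82 in BIC (bounds 0.555 to 3.08), with overlapping bounds. The authors' deposited tables give -0.89 (SE 0.37, DESeq2 adjusted p = 0.0493) in shCtrl and -1.26 (SE 0.36, adjusted p = 0.00147) in shRai1. The shCtrl call ended when p-values were adjusted over all genes with a p-value (adjusted p = 0.0623) or the changes were centred on the median gene (adjusted p = 0.0649). Among 7 endothelial markers with a test, 5 lay above 0 and 2 below under BIC in shCtrl; the summed FPKM of all 8 was 1.85 in vehicle and 2.40 in BIC, and their part in the values of Klf2 was not tested.

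**Figure D2:**
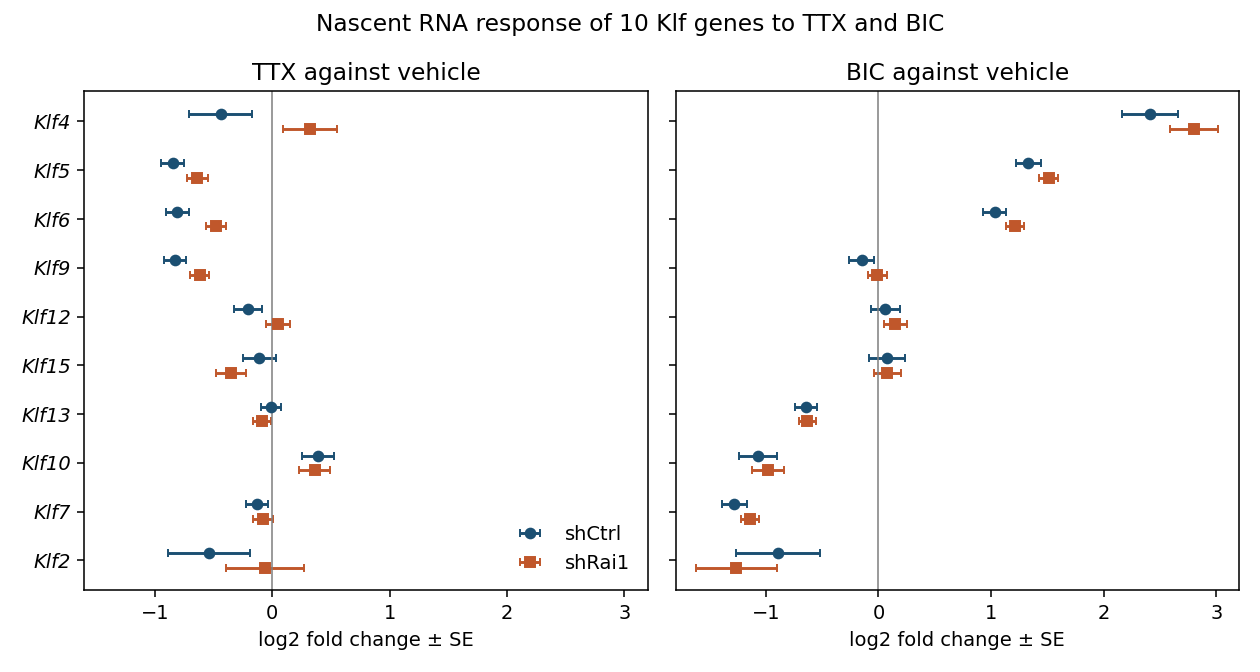
Log2 change of each member against vehicle, for TTX and BIC in the shCtrl and shRai1 arms, from the authors' deposited tables. Bars show the SE on either side of each point, not 95% intervals. Klf4, Klf5 and Klf6 lie above 0 under BIC in both arms, and Klf5, Klf6 and Klf9 lie below 0 under TTX in both.

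Under TTX, Klf5, Klf6 and Klf9 fell and Klf10 rose in both arms, and Klf15 fell in shRai1. That is 1 member higher and 3 lower in shCtrl, where 11.8% of genes with an adjusted p were higher and 14.9% lower. It is 1 higher and 4 lower in shRai1, where 13.7% were higher and 16.8% lower. The member median was -0.32 in shCtrl and -0.08 in shRai1, against 0.00 over all genes.

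Klf9, which glucocorticoid and thyroid hormone induce and which restrains neurite growth, fell under TTX in both arms and did not pass under BIC. Its pooled FPKM was 55.7 in vehicle, 33.3 in TTX (bounds 25.2 to 41.5) and 54.6 in BIC. Of the 10 members, it alone had TTX bounds that did not overlap those of vehicle. The authors' deposited tables give TTX log2 changes of -0.83 (SE 0.096, DESeq2 adjusted p = 1.89e-16) in shCtrl and -0.62 (SE 0.085, adjusted p = 4.51e-12) in shRai1. Under BIC they give -0.15 (95% interval -0.36 to 0.06, DESeq2 adjusted p = 0.293) and -0.01 (-0.18 to 0.15, adjusted p = 0.944).

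Klf5 was at 9.31 FPKM in TTX (bounds 5.96 to 12.7) against 16.2 in vehicle. The authors' deposited tables give -0.85 (SE 0.10, DESeq2 adjusted p = 2.39e-15) in shCtrl and -0.64 (SE 0.090, adjusted p = 3.74e-11) in shRai1. Klf6 was at 25.3 FPKM in TTX (bounds 19.4 to 31.1) against 39.2, with -0.81 (SE 0.097, DESeq2 adjusted p = 3.20e-15) and -0.48 (SE 0.085, adjusted p = 2.22e-07), per the authors' deposited tables. Both genes therefore lay lower with TTX and higher with BIC than with vehicle.

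Klf10 showed the reverse order: 20.2 FPKM in TTX, 16.8 in vehicle and 6.74 in BIC. The authors' deposited tables give TTX log2 changes of 0.39 (SE 0.14, DESeq2 adjusted p = 0.0256) and 0.36 (SE 0.13, adjusted p = 0.0187). Klf15, a glucocorticoid-induced regulator of metabolism, was at 10.2 FPKM in vehicle, 8.75 in TTX and 11.6 in BIC, with overlapping bounds. Its TTX log2 change in the authors' deposited tables was -0.11 (SE 0.14, DESeq2 adjusted p = 0.622) in shCtrl and -0.35 (SE 0.13, adjusted p = 0.0196) in shRai1. The difference between these arms was -0.24 (SE 0.19, Wald adjusted p = 0.819), so a difference was not detected.

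Klf4 and Klf7, which responded to BIC, did not pass under TTX. For Klf7 the authors' deposited tables give -0.13 (95% interval -0.32 to 0.05) in shCtrl and -0.08 (-0.24 to 0.08) in shRai1, so that a fall of the size seen with BIC lies outside both intervals. For Klf13 they are -0.01 (-0.19 to 0.16) and -0.09 (-0.24 to 0.06), again in the authors' deposited tables. For Klf4 the intervals in the authors' deposited tables are wider, at -0.44 (-0.96 to 0.09) and 0.32 (-0.14 to 0.77).

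Klf12, a repressor of the AP-2alpha gene, did not pass in any of the 4 responses. The authors' deposited tables give -0.21 (95% interval -0.44 to 0.02) and 0.05 (-0.16 to 0.25) for TTX, and 0.06 (-0.20 to 0.31) and 0.15 (-0.06 to 0.35) for BIC. The pooled FPKM of Klf12 was 4.96 in vehicle, 3.37 in TTX and 3.65 in BIC, and its log2 FPKM ratio under BIC, -0.43, differed in sign from the log2 change of 0.06 in the authors' deposited table. The gene's interval is the longest of the 10.

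Averaged over both arms, the TTX response passed for 5 members (33.1% of the 18241 genes whose mean reached 0.1 FPKM) and the BIC response for 7 (46.0%). The TTX averages of these 5 were -0.74 for Klf5, -0.73 for Klf9, -0.65 for Klf6, -0.23 for Klf15 and 0.38 for Klf10 on the log2 scale. That of Klf15 had a Wald adjusted p of 0.0415, which became 0.0509 when changes were centred on the median gene. The BIC averages were 2.61 for Klf4, 1.42 for Klf5, 1.12 for Klf6, -0.64 for Klf13, -1.02 for Klf10, -1.07 for Klf2 and -1.21 for Klf7. The 5th to 95th percentiles over all genes were -0.57 to 0.53 for TTX and -0.70 to 0.91 for BIC, so that Klf5, Klf6 and Klf9 lay outside this range under TTX, and Klf2, Klf4, Klf5, Klf6, Klf7 and Klf10 under BIC.

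**Figure D3:**
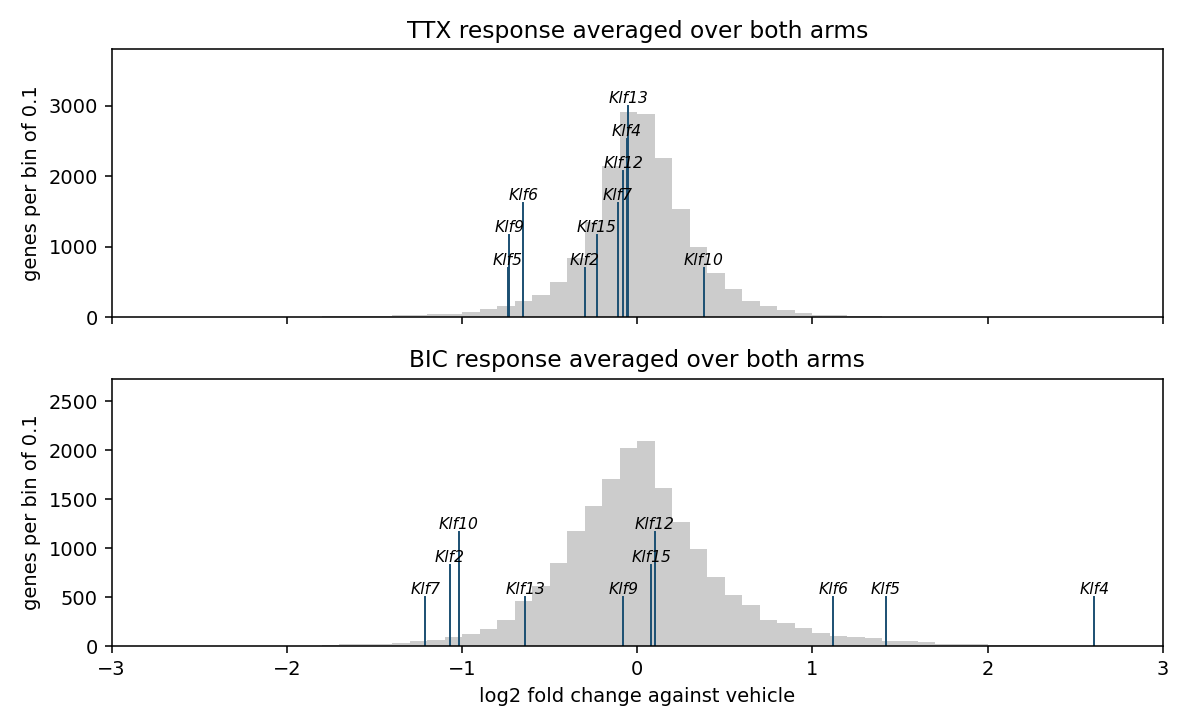
Distribution of log2 changes against vehicle over all genes whose mean reached 0.1 FPKM (grey bars, genes per bin of 0.1), averaged over both arms, for TTX and BIC. Lines mark the 10 members, with heights set only to separate their names; Klf4 stands farthest out under BIC at 2.61.

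The direct comparison of BIC with TTX, averaged over arms and added after the data had been seen, passed for 8 members against 46.8% of all genes. Klf4 was higher in BIC than in TTX by 2.67 (SE 0.24), Klf5 by 2.16 (SE 0.096), Klf6 by 1.77 (SE 0.092), Klf9 by 0.65 (SE 0.093) and Klf15 by 0.32 on the log2 scale. The Wald adjusted p of Klf15 was 0.0454, and 0.0523 when all genes with a value were included. The log2 difference was -0.59 (SE 0.086) for Klf13, -1.10 (SE 0.091) for Klf7 and -1.40 (SE 0.15) for Klf10. Klf2, at -0.77 (SE 0.35, Wald adjusted p = 0.0589), and Klf12, at 0.18 (SE 0.11, Wald adjusted p = 0.197), did not pass. Because both responses share the vehicle libraries, these SE are upper bounds.

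Marker genes moved with the treatments as well. Under BIC in shCtrl, 4 of 8 neuron markers were higher and 3 lower (median 0.35), and 1 of 7 astrocyte markers was higher and 1 lower (median -0.04). All 7 markers of the oligodendrocyte lineage lay below 0 there, and 2 were lower by the test (median -0.25). In shRai1 4 of these 7 lay above 0 and 3 below (median 0.00, 1 lower by the test), while neuron markers again had 4 higher and 3 lower, and astrocyte markers 2 higher and none lower. Of the microglia markers with an adjusted p under BIC, 2 of 3 were higher in shCtrl and 1 of 5 in shRai1, and the FPKM of all 8 in shCtrl summed to 22.1 with vehicle against 31.9 with BIC. Endothelial markers were higher for 1 of 5 in shCtrl and called for 0 of 6 in shRai1 by DESeq2, with 2 at an unadjusted p under 0.05. Mural markers were called for 0 of 5 in shCtrl by DESeq2, with 1 at an unadjusted p under 0.05, and 1 of 5 was lower in shRai1. Under TTX in shCtrl, 1 neuron marker was higher and 4 were lower, and 4 of 7 astrocyte markers were lower, with summed FPKM of 231 in vehicle and 188 in TTX. In shRai1 no neuron marker was higher and 3 were lower under TTX, and 1 astrocyte marker was higher and 1 lower. Markers of the oligodendrocyte lineage were lower for 4 of 7 and higher for 1 under TTX in shCtrl, but higher for 4 in shRai1. The part of these cell types in the members' responses was not tested.

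No member passed the test between the arms. In the tables of shRai1 against shCtrl, DESeq2 called 0 of the 9 members with an adjusted p in vehicle (0.857% of all genes with one), 0 of 10 in TTX (0.0283%) and 0 of 10 in BIC (0.00944%). The counts at an unadjusted p under 0.05 were 2, 1 and 0. In vehicle these were Klf6 and Klf9, with log2 changes in the authors' deposited table of -0.20 (SE 0.095, p = 0.0360, DESeq2 adjusted p = 0.407) and -0.21 (SE 0.095, p = 0.0277, adjusted p = 0.368). In TTX it was Klf4, at 0.52 (SE 0.24, p = 0.0317, DESeq2 adjusted p = 1.000), per the authors' deposited table. In vehicle 8 of the 10 members lay below 0, with a median of -0.17 against -0.01 over all genes. In the same comparison 4 of 7 oligodendrocyte-lineage markers were lower (median -0.73), and all 7 astrocyte markers lay below 0 (median -0.25). Neuron markers lay below 0 for 7 of 8 (median -0.09), and 1 was higher by the test. Whether the marker values are connected with the members' values was not tested.

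The intervals bound what could have been missed. For Klf5, Klf6, Klf7, Klf9 and Klf13, the SE of the arm comparison was 0.077 to 0.098 on the log2 scale in every treatment. For Klf2, at 0.33 to 0.38, and Klf4, at 0.19 to 0.26, only larger differences would have been detectable. Klf2 in BIC had -0.69 (95% interval -1.44 to 0.05, unadjusted p = 0.0685, DESeq2 adjusted p = 1.000), per the authors' deposited table.

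**Figure D4:**
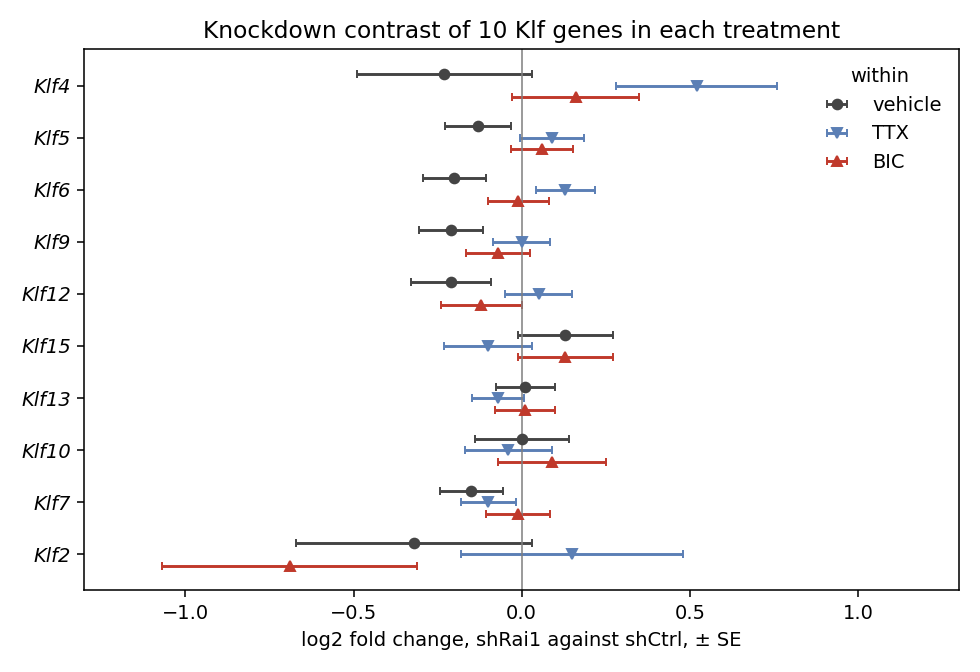
Log2 difference of shRai1 from shCtrl for each member in vehicle, TTX and BIC, from the authors' deposited tables. Bars show the SE on either side of each point, so they are narrower than 95% intervals. The bars of Klf2 and Klf4 are the widest, and no member passed an adjusted p of 0.05.

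Nor did the response of any member differ detectably between arms. The interaction, coded as shRai1 response minus shCtrl response, was called for 0 members with TTX (0.943% of all genes) and 0 with BIC (0.0219%) by the Wald test. At an unadjusted p under 0.05 there were 2 with TTX and 0 with BIC. The TTX interaction lay above 0 for 7 of the 10 members (median 0.21 against 0.00 over all genes) and the BIC interaction for 8 (median 0.11 against 0.01). For Klf6 the TTX interaction was 0.33 (SE 0.13, unadjusted p = 0.0115, Wald adjusted p = 0.295), its fall having been -0.81 in shCtrl and -0.48 in shRai1 in the authors' deposited tables. For Klf4 it was 0.75 (SE 0.35, unadjusted p = 0.0340, Wald adjusted p = 0.474). The TTX interaction of oligodendrocyte-lineage markers passed for 5 of 7, all higher in shRai1 (median 1.10), and 6 of 7 astrocyte markers lay above 0 for TTX (median 0.18) and 6 of 7 for BIC (median 0.17), with 0 called by the Wald test and 2 and 1 at an unadjusted p under 0.05. Of 8 neuron markers, 1 passed for TTX, lower in shRai1, with 4 above 0 and 4 below (median -0.01). For BIC 7 of the 8 lay above 0 (median 0.08), with 0 called by the Wald test and 2 at an unadjusted p under 0.05. The part of these cell types in the members' interactions was not tested.

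Among the 16 other Klf and Sp genes, which share the zinc-finger fold, 2 of the 12 with an adjusted p passed under TTX in shCtrl and 4 of 12 in shRai1, against 26.7% and 30.5% of all genes. Under BIC 5 of 13 passed in shCtrl and 6 of 15 in shRai1, against 34.4% and 42.5%, so the counts lay near the background. Klf3, a CtBP-binding repressor, had -0.26 (SE 0.087, DESeq2 adjusted p = 0.0154) under TTX in shCtrl and -0.02 (SE 0.097, adjusted p = 0.927) under BIC there, in the authors' deposited tables. Its TTX change in shRai1, -0.01 (SE 0.077, DESeq2 adjusted p = 0.953) in the authors' deposited table, did not pass. Sp1, the ubiquitous GC-box activator, had -0.07 (SE 0.089) and 0.03 (SE 0.099) in the authors' deposited tables, and neither passed. Its relatives Sp3 and Klf8 passed under TTX in shRai1, with 0.33 (SE 0.082, DESeq2 adjusted p = 0.000483) and 0.30 (SE 0.083, adjusted p = 0.00178), per the authors' deposited table. Neither passed under TTX in shCtrl, with 0.08 (SE 0.093, DESeq2 adjusted p = 0.583) and 0.13 (SE 0.094, adjusted p = 0.330) in the authors' deposited table. Sp4 passed under BIC in both arms, with 0.31 (SE 0.13, DESeq2 adjusted p = 0.0442) and 0.45 (SE 0.10, adjusted p = 3.69e-05), per the authors' deposited tables. Chosen after values were seen, Sp7, a factor of bone formation, had BIC log2 changes in the authors' deposited tables of 2.96 (SE 0.23) for shCtrl and 3.23 (SE 0.18) for shRai1, larger than those of Klf4. Klf11, the closest relative of Klf10, likewise chosen afterwards, fell under BIC, with -0.76 (SE 0.19, DESeq2 adjusted p = 0.000375) and -0.98 (SE 0.16, adjusted p = 3.66e-09) per the authors' deposited tables.

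Of 19 genes known to act upstream of the family, 10 passed under TTX in shCtrl and 7 in shRai1, where 26.7% and 30.5% of all genes did. Under BIC 13 passed in each arm, 4 higher and 9 lower, where 34.4% and 42.5% of all genes passed. Thrb, a thyroid hormone receptor that acts on Klf9, went the way of Klf5 and Klf6: the authors' deposited tables give -0.93 (SE 0.11, DESeq2 adjusted p = 4.84e-16) under TTX and 1.00 (SE 0.12, adjusted p = 1.75e-15) under BIC in shCtrl. Thra, the other receptor, had in the same arm 0.41 (SE 0.11, DESeq2 adjusted p = 0.00121) and -0.69 (SE 0.12, adjusted p = 1.80e-07), again per the authors' deposited tables. The pooled FPKM of Thra in shCtrl was 271 in vehicle, 240 in TTX and 185 in BIC. Under TTX its FPKM thus differed in direction from the log2 change, so the direction of Thra under TTX is uncertain. Of the MEF2 factors, which activate Klf2 and Klf4 downstream of ERK5, Mef2c rose under BIC by 0.67 (SE 0.22, DESeq2 adjusted p = 0.00766) and Mef2d fell by 0.51 (SE 0.11, adjusted p = 4.32e-05) in shCtrl, in the authors' deposited table. Mef2a, at -0.12 (SE 0.12), did not pass there.

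Of 14 cofactors and ubiquitin ligases that bind Klf proteins, 3 passed under TTX in shCtrl and 6 in shRai1, and 6 under BIC in each arm, beside the same 26.7%, 30.5%, 34.4% and 42.5% of all genes. Sin3b, a scaffold of the corepressor that Klf9, Klf10 and Klf13 recruit, rose under BIC by 0.65 (SE 0.10, DESeq2 adjusted p = 3.13e-09) in shCtrl, per the authors' deposited table. Sin3a, the other scaffold, named after its values were seen, fell under BIC by 0.39 (SE 0.10, DESeq2 adjusted p = 0.000567) in shCtrl and 0.42 (SE 0.080, adjusted p = 6.86e-07) in shRai1, per the authors' deposited tables. The coactivator Crebbp rose under BIC in shCtrl by 0.51 (SE 0.072, DESeq2 adjusted p = 2.16e-11), per the authors' deposited table, whereas its paralog Ep300, at 0.09 (SE 0.076, adjusted p = 0.370), did not pass. Fbxw7, whose ubiquitin ligase degrades Klf5, fell under TTX in shCtrl by 0.57 (SE 0.085, DESeq2 adjusted p = 4.79e-10), per the authors' deposited table.

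Of 8 genes that, like Klf9 and Klf15, respond to glucocorticoids, 7 passed under TTX in shCtrl (2 higher, 5 lower) and 6 in shRai1, and 5 and 7 under BIC, beside 26.7%, 30.5%, 34.4% and 42.5% of all genes. Per1, a clock gene, passed under TTX: for shCtrl the authors' deposited tables give TTX and BIC changes of -1.42 (SE 0.12, DESeq2 adjusted p = 3.69e-30) and -0.31 (SE 0.13, adjusted p = 0.0571). Averaged over arms, its BIC response was -0.20 (Wald adjusted p = 0.0371) and passed, unlike that of Klf9 (Wald adjusted p = 0.361). In shCtrl, Sgk1, a kinase, fell under TTX by 0.39 (SE 0.083, DESeq2 adjusted p = 2.77e-05) and rose under BIC by 0.88 (SE 0.092, adjusted p = 6.61e-20), per the authors' deposited tables. Fkbp5, a cochaperone of the glucocorticoid receptor, went the other way in shCtrl, with 0.33 (SE 0.079, DESeq2 adjusted p = 0.000258) under TTX and -0.23 (SE 0.089, adjusted p = 0.0272) under BIC per the authors' deposited tables, but its TTX change in shRai1, 0.05 (SE 0.069, adjusted p = 0.687), did not pass. Many of these genes are also regulated by neuronal activity.

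The genes most like each member were sought among 12112 genes by Euclidean distance over 5 log2 changes, the 4 responses and the knockdown in vehicle. The nearest to Klf4 were Tes (distance 0.263) and Tnfaip6 (0.431), and the nearest to Klf5 were Morc4 (0.135) and Rasal2 (0.136). Tes had BIC log2 changes of 2.49 and 2.96 in the authors' deposited tables. Klf6 was nearest to Gm6225 (0.131) and Nabp1 (0.153), Klf7 to Ankrd27 (0.251) and Psd2 (0.252), and Klf9 to Cap1 (0.0992) and then Gabra5. Gabra5, a GABA-A receptor subunit, had TTX changes of -0.77 and -0.64 in the authors' deposited tables. Klf10 was nearest to Atg10 and then Nsg2 (0.116), Klf2 to Pde7b (0.317) and Mettl24 (0.324), and Klf12 to Mcf2 (0.0615) and Wdhd1 (0.0675). Klf13 was nearest to Tada2a (0.0582) and Slc44a1 (0.0813), and Klf15 to Sars (0.0567) and Mybbp1a (0.0859). The 5 changes share libraries, and no test was made. No member was among another's nearest 2.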

How the data were processed

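Per the labels' protocols, Bru-seq libraries were stranded and read single-end over 50 bp. The submitters' processing notes list TopHat2 2.1.0, Bowtie2 2.2.6, DESeq2 and the mm9 build, without their roles. ChIP-seq data (12 samples) were not analysed here.

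Per the file headers, each of the authors' 7 comparison tables gives a mean normalized count (a signal averaged over libraries), a log2 fold change, its SE, a Wald statistic (a score) and p-values. A further table deposited by the authors gives pooled FPKM with bounds; its knockdown columns entered only mean FPKM used as a filter, because their ratios ran against the deposited TTX responses in shRai1 (r = -0.633 across 12311 genes, against 0.723 for shCtrl). Low genes have moderated log2 changes, none above 0.79 in size at mean counts under 1. The table for the knockdown in vehicle names no genes, and 20107 were named here by their unique mean count. Tested on another table, the rule recovered 20107 of 20107 names, but tables with the same mean counts must give this. It therefore does not check the unnamed table itself. With the names given, the arm difference in each response equalled the knockdown change in that treatment minus that in vehicle, with a largest error of 1e-09.

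Python 3.11.15 with pandas 2.3.3 and scipy 1.17.1 computed averages over arms, interactions and BIC minus TTX from the deposited log2 changes. Errors were the root of the summed squares, with a two-sided Wald test and Benjamini-Hochberg adjustment over the 18241 genes whose mean FPKM reached 0.1. Tested on simulated data with 200 changed genes, the interactions recovered 98.5% (TTX) and 95.0% (BIC), and the other contrasts 100%. Recovery at the sizes of the members' interactions, -0.24 to 0.75 for TTX and -0.37 to 0.40 for BIC, was not tested. Libraries are biological replicates of pooled embryos, per the series' design, and p-values measure the spread between them. Depth per library is unknown. The named genes were all 10 members, Rai1, the 2 nearest genes of each member, and genes out of the 6 with the highest mean count in each list; which of these 6 are named was decided after their values were seen. Sp7, Klf11 and Sin3a fall outside this rule and were likewise chosen afterwards. The lists were other Klf and Sp genes, upstream genes, cofactors, glucocorticoid-response genes and markers of 6 cell types. The members and lists were chosen with earlier results of these data known. Alternatives were other thresholds, filters, centring, errors and pseudocounts.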

Additional observations from a re-analysis of the deposited data

How the results depend on the processing

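Of 62 recomputed counts of members called, 61 stayed within 1.5 times the main count. The exception was TTX in shRai1, where a threshold of 0.01 left 3 members called, without Klf10 and Klf15, in place of 5. No value changed direction while called. That threshold also ended the calls of Klf10 under TTX and Klf2 under BIC in shCtrl, and of Klf15 averaged over arms under TTX and in BIC minus TTX, while a threshold of 0.1 added Klf2 in BIC minus TTX. At 0.05, a changed filter or centring ended the calls of Klf2 and Klf15 given beside their results. Ranking likeness by Pearson correlation over the same 5 log2 changes shared 0 of 2 nearest genes with the distance for every member, so the nearest genes depend on the measure. A pseudocount of 1 FPKM in place of 0.1 moved the log2 FPKM ratio under BIC from 1.84 to 1.63 for Klf4, from -1.32 to -1.01 for Klf2 and from -1.31 to -1.21 for Klf10. No paired analysis was possible because the tables hold no values per library. For the same reason the alternatives that leave out a replicate were not run, and it is not known whether 1 library carries a result. The shCtrl vehicle and BIC groups have 2 libraries each, and Klf2 rests on a mean count of 17.1.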
